A study of Mus musculus with 6 samples.

Results

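The genes described here are 10 core members of the Notch pathway: the receptor genes Notch1, Notch2, Notch3 and Notch4, the ligand genes Jag1, Jag2, Dll1 and Dll4, and the target genes Hes1 and Hey1. They were chosen by symbol, and each of the 10 stood on 1 of the 23282 rows of the count tables. Their RNA was measured by 3' tag sequencing in primary acinar cells from the pancreas of C57BL/6J mice, the cells that make and store digestive enzymes. The controls were 3 libraries of wild type genotype, and the other 3 libraries carried a conditional knock-out (cKO) of ERRgamma, labelled ERRgamma -/-, an orphan nuclear receptor encoded by Esrrg. Both groups were held in Waymouth's medium that contained serum, antibiotics, a trypsin inhibitor and human epidermal growth factor. What drove the deletion, what it removed, how long cells were cultured and how old the mice were is not given in the sources used here. No label says that replicates came from separate mice, so the p-values describe the spread among 6 libraries, and this spread may be technical only.

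Notch receptors are single-pass membrane proteins that are activated by Jagged or Delta ligands on a neighbouring cell. Ligand binding exposes the receptor to ADAM proteases and then to gamma-secretase, which frees an intracellular domain that joins RBPJ and Mastermind proteins on DNA and switches on repressor genes such as Hes1 and Hey1. In the pancreas the pathway is known for holding progenitors undifferentiated, it is low in resting acinar cells, and it is active when acinar cells take on duct features after injury. In adult acinar cells RBPJL, an acinar relative of RBPJ that does not bind Notch, takes the place of RBPJ in the PTF1 transcription complex.

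The library totals ran from 15170173 to 25183465 counts. The 100 genes most abundant in the controls held 94.3% to 94.7% of control counts and 36.1% to 69.4% of cKO counts, with the highest cKO share in replicate 2. TMM scaling, which assumes that most genes are unchanged, gave effective library sizes of 7522015 to 8487842 counts in control and 33153786 to 59957469 counts in cKO. Levels below are in CPM, the counts over these effective sizes with the usual scaling constant, and a count of 0 (up to 3 counts, counting error only) allows 0.353 to 0.399 CPM in a control library and 0.05 to 0.0905 CPM in a cKO library. On library totals instead, the log2 fold changes of all tested genes lay higher by a median of 3.26, and all 9 tested members were called higher and 0 lower, as were 96.4% and 0.404% of all tested genes in edgeR. On that scale the cKO libraries lay above the controls without overlap for 9 of 9 members and 96.9% of all tested genes. Directions are thus relative to other genes of the same library. Esrrg had 0 counts in each control library and 0, 9 and 1 counts in cKO replicates 1, 2 and 3. From 0 control counts no loss could be seen, and tags at the 3' end need not fall in what was removed. Esrrg counts thus check no genotype label. The 6 acinar markers (Ctrb1 and Cela1 the most abundant) were present in all 6 libraries, at 13.2% to 14.2% of control counts and 4.25% to 12.3% of cKO counts.

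Of the 10 Notch genes, Notch2 rose in the cKO libraries and Hes1 fell on the TMM scale, and the other 7 tested members did not pass the test. Notch2 was 3.24-fold higher and was the most abundant receptor transcript in every cKO library. Hes1 was 1.71-fold lower relative to other genes, although as a share of the whole library it was higher in cKO. Jag2 was too low to be tested. With edgeR's quasi-likelihood test, 1 of 9 tested members (11.1%) was called higher, where 24.0% of all 13132 tested genes were, and 1 of 9 (11.1%) lower, where 20.7% were. In either direction 2 of 9 members were called, and 44.7% of all tested genes. The groups did not overlap for 1 member that was higher and 1 that was lower, where 30.7% and 25.4% of tested genes did not overlap in these directions. No share of members was above its background. The median log2 fold change of the tested members was -0.14, and that of all tested genes 0.10.

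**Figure D1:**
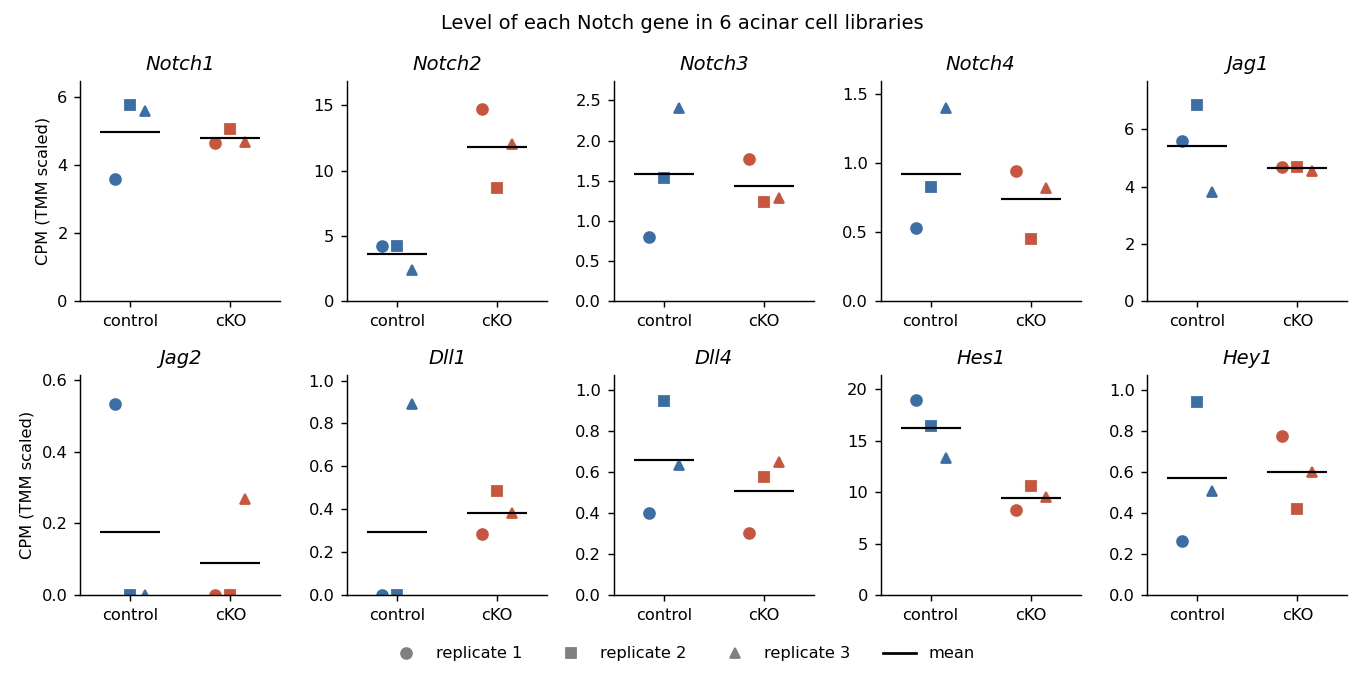
Level of each of the 10 Notch genes in the 6 libraries, in CPM of the TMM-scaled library size on linear axes from 0, with 1 point per library (circle, square and triangle for replicates 1, 2 and 3) and a line at the group mean. The groups stand apart for Notch2 (2.41 to 4.25 CPM in control, 8.66 to 14.7 CPM in cKO) and for Hes1 (13.3 to 18.9 and 8.25 to 10.6 CPM), and overlap for the other members.

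In the control libraries Hes1 had the highest level, 16.2 ± 2.77 CPM (SD, n = 3), and stood clear of Jag1 at 5.41 ± 1.52 CPM. These are tags per transcript, so no division by length was made, but annotated 3' ends can still differ between genes in how well they are counted. Each of the next neighbours in the order overlapped: Jag1, Notch1 (4.98 ± 1.21 CPM), Notch2 (3.64 ± 1.06), Notch3 (1.58 ± 0.809), Notch4 (0.918 ± 0.44), Dll4 (0.659 ± 0.273), Hey1 (0.572 ± 0.343), Dll1 (0.296 ± 0.513) and Jag2 (0.177 ± 0.307). In the cKO libraries Notch2 was first at 11.8 ± 3.01 CPM and overlapped Hes1 at 9.49 ± 1.2 CPM. Notch1 at 4.8 ± 0.231 and Jag1 at 4.63 ± 0.0775 CPM followed, each clear of the genes outside this pair. Notch3 at 1.43 ± 0.294 CPM stood apart from Notch4, Hey1, Dll4 and Dll1, which ran from 0.738 ± 0.255 down to 0.384 ± 0.0981 CPM and overlapped in turn, and Jag2 was below them at 0.089 ± 0.154 CPM.

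Notch2 encodes a receptor expressed in many epithelia and in immune and stromal cells, and its gene spans 98013527 to 98150361 on the plus strand of chromosome 3 (GRCm38). Notch2 was counted 32, 36 and 19 times in control replicates 1 to 3 and 871, 287 and 719 times in cKO, or 4.25, 4.24 and 2.41 CPM against 14.7, 8.66 and 12 CPM. Every cKO library lay above every control library, and replicate 2 was the lowest of the cKO libraries. The log2 fold change was 1.70 ± 0.28 (SE; 95% interval 1.09 to 2.30; edgeR adjusted p = 2e-04). Leaving out 1 library at a time kept the call, with fold changes from 1.48 without control replicate 3 to 1.89 without cKO replicate 2. On library totals it was 5.04.

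Fibroblast and stellate, leukocyte and mesothelial markers rose with Notch2, and of the other lists a smaller share was called higher. Among all tested genes 24.0% were called higher and 20.7% lower. Of 8 endothelial markers 1 was called higher (12.5%) and 3 lower (37.5%). Of 7 mural markers 2 were higher (28.6%, near the share of all tested genes) and 0 lower. Of 4 tested ductal markers 2 were higher (50%) and 1 lower (25%), and of 5 islet markers 0 were called. The summed level of 6 fibroblast and stellate cell markers (Col1a2 and Col3a1 the most abundant) was 720 to 813 CPM in control and 3550 to 5060 CPM in cKO, and 6 of 6 tested rose. Of the 5 tested of 6 leukocyte markers (Csf1r and Cd68 the most abundant), 4 rose, and their sum was 24.8 to 38.3 CPM in control and 97.2 to 238 CPM in cKO. The 4 mesothelial markers (Lrrn4 and Wt1 the most abundant) all rose, from 17.5 to 23.4 CPM up to 90.1 to 110 CPM. No marker of these lists was at 0 in all libraries of a group. Within the cKO group Notch2 and the leukocyte, fibroblast and mesothelial sums were each lowest in replicate 2. So were the uncalled Notch3, Notch4 and Hey1, while the endothelial, mural and islet sums were highest there. In ratios chosen after the data were seen, Notch2 had 97.4 to 143 counts per 1000 leukocyte marker counts in control and 61.3 to 89.1 in cKO, and 2.97 to 5.89 and 2.44 to 2.9 per 1000 fibroblast and stellate marker counts. Both ratios were lower in every cKO library than in every control library. Notch2 per 1000 mesothelial marker counts (103 to 242 in control, 96.1 to 137 in cKO) and per 1000 mural marker counts (151 to 371 and 336 to 600) overlapped. Per 1000 counts of 5 ductal markers (Spp1 and Krt19 the most abundant) Notch2 had 31.3 to 64.4 in control and 102 to 177 in cKO, which was higher, as were the ratios to endothelial, islet and acinar markers. The part of these cell types in the level of Notch2 was not tested. In bulk RNA, more cells of a type and more RNA per cell cannot be told apart.

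**Figure D2:**
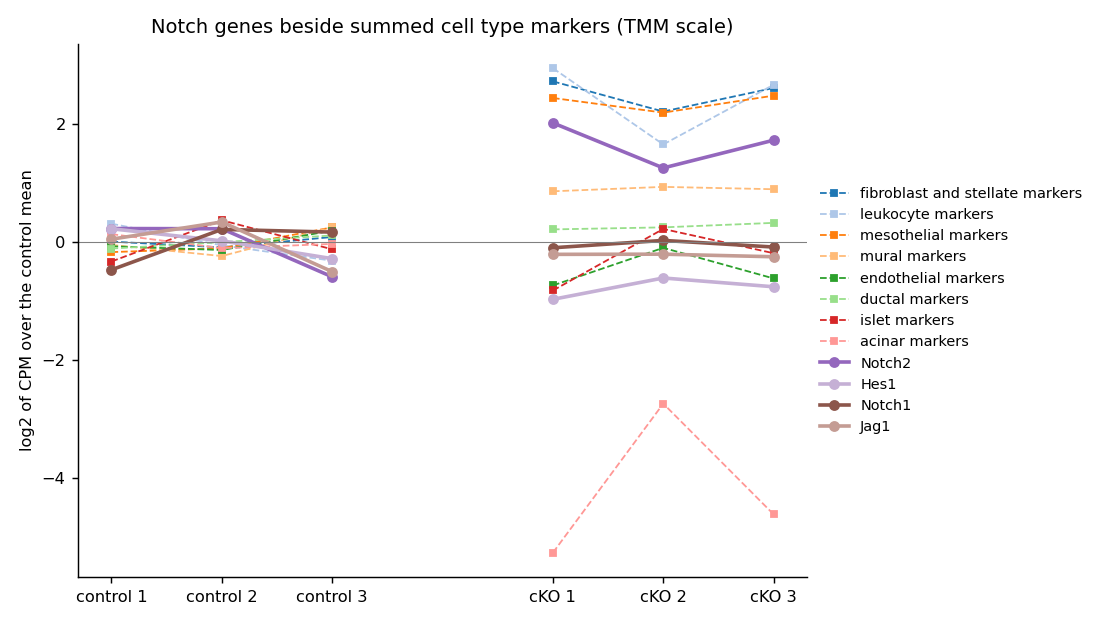
Log2 of the level over the control mean for Notch2, Hes1, Notch1 and Jag1 (thick lines) and for the summed markers of 8 cell types (dashed lines) in each library, on the TMM scale, with lines that only link the points of 1 series and imply no order. In cKO the Notch2 points lie below the fibroblast, leukocyte and mesothelial sums and above the mural sum, and the acinar sum lies lowest, nearest to control in cKO replicate 2.

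Notch1, a receptor with roles in acinar upkeep and in metaplasia, lies on chromosome 2 (26457903 to 26516663, minus strand). Its counts were 27, 49 and 44 in control and 276, 168 and 281 in cKO, or 3.59, 5.77 and 5.59 CPM against 4.65, 5.07 and 4.69 CPM. The cKO libraries fell within the control range. The log2 fold change was -0.06 ± 0.27 (SE; 95% interval -0.64 to 0.52; edgeR adjusted p = 0.878), an interval that holds both falls and rises.

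Notch3, a receptor best known in pericytes and vascular smooth muscle (chromosome 17, 32120820 to 32166852), had 6, 13 and 19 control counts and 105, 41 and 77 cKO counts. Notch4, known mainly in endothelium (chromosome 17, 34564268 to 34588503), had 4, 7 and 11 against 56, 15 and 49. Neither passed the test on the TMM scale, where their groups overlapped. The log2 fold changes were -0.14 (95% interval -1.20 to 0.91; edgeR adjusted p = 0.835) and -0.30 (-1.63 to 1.02; adjusted p = 0.723). The 7 mural cell markers (Acta2 and Pdgfrb the most abundant) summed to 11.4 to 16 CPM in control and 24.4 to 25.7 CPM in cKO. Of these 7, 2 were called higher (28.6%, against 24.0% of all tested genes). The 8 endothelial markers (Esam and Kdr the most abundant) summed to 42.6 to 53.5 and 28.1 to 43.7 CPM. Of these 8, 1 was higher (12.5%) and 3 lower (37.5%, against 20.7% of all tested genes). Per 1000 endothelial marker counts, Notch4 had 11.9 to 26.1 in control and 10.4 to 33.5 in cKO, which overlapped. Per 1000 mural marker counts, Notch3 had 61.2 to 151 and 48.1 to 72.4, which also overlapped.

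The make-up of the receptor pool does not depend on how libraries are scaled, because each share is taken within 1 library. The 4 receptors together had 69, 105 and 93 control counts and 1308, 511 and 1126 cKO counts. Notch2 made up 46.4% (exact 95% interval 34.3 to 58.8), 34.3% (25.3 to 44.2) and 20.4% (12.8 to 30.1) of these in control. In cKO it made up 66.6% (64.0 to 69.1), 56.2% (51.7 to 60.5) and 63.9% (61.0 to 66.7). The intervals cover counting error only. Notch2's share was larger in every cKO library, with means of 33.7% ± 13 and 62.2% ± 5.41 (SD, n = 3; exact 2-sided permutation p = 0.1, the smallest that 3 against 3 libraries can give; 0.2 after adjustment over 8 share tests). Notch1's share was smaller in every cKO library, at 44.4% ± 4.55 in control and 26.3% ± 6 in cKO (SD, n = 3; exact permutation p = 0.1, adjusted 0.2). Notch3 (13.8% ± 6 and 7.63% ± 0.685) and Notch4 (8.10% ± 3.26 and 3.86% ± 0.798) also took smaller shares in every cKO library, with the same exact p. Shares of 1 sum are not independent of each other. Control replicate 3 had the lowest Notch2 share and the highest shares of Notch3 and Notch4, and without it the mean differences for these 3 receptors were 21.9, -2.91 and -2.38 percentage points in place of 28.5, -6.21 and -4.24.

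**Figure D3:**
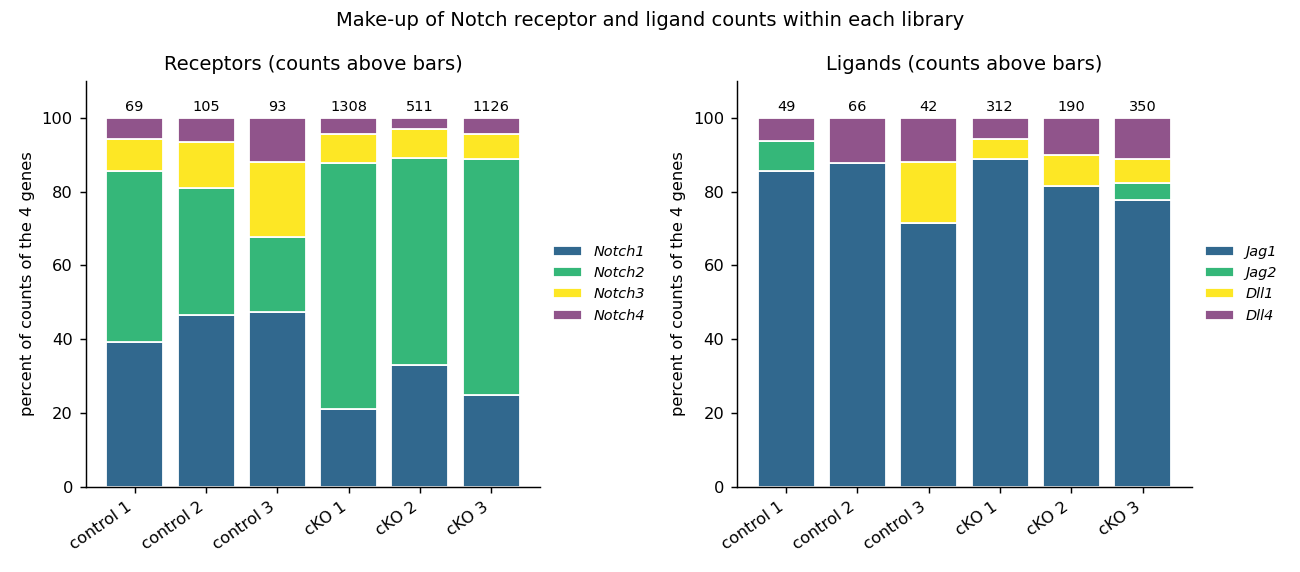
Percent of the summed receptor counts (left) and ligand counts (right) taken by each gene in each library, with the summed counts above the bars. Notch2 makes up 20.4% to 46.4% of receptor counts in control and 56.2% to 66.6% in cKO, and Jag1 is the largest part of ligand counts in all 6 libraries.

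The proximal promoters of Notch2 and Notch1 are shown because these receptors parted in the data. Each runs from 250 bases before to 50 bases after a RefSeq transcript start (GRCm38.p6), and the GENCODE model of Notch1 begins further upstream. Capitals mark the N-box, letters CACNAG on either strand, which HES proteins can bind.

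Notch2, chr3:98013288-98013587, plus strand: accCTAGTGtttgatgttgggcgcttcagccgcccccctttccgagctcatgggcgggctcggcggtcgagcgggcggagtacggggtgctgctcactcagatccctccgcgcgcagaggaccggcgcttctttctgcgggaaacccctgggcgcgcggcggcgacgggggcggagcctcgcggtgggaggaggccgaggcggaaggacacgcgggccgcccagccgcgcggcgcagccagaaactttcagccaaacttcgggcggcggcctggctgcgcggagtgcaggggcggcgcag

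Notch1, chr2:26503773-26504072, minus strand: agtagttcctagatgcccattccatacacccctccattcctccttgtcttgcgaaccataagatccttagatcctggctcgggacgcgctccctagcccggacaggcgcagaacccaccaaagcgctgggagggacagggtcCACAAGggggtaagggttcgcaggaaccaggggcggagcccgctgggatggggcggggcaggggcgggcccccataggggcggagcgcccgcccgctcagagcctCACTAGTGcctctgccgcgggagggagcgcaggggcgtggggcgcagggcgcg

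Notch2 had 1 N-box, which began 247 bases before the start on the opposite strand. Notch1 had 3, of which 2 overlapped each other at the start site. An N-box was found in 42.6% of all 32544 promoters of this length. The table held 9 promoters for 8 of the 10 members, all but Hes1 and Hey1. Of these 9, 5 held an N-box, and 0 held the core of the RBPJ site (TGGGAA) or the extended site bound by ERR receptors (AAGGTCA), each searched on both strands. These stood in 25.4% and 4.71% of all promoters. A match of letters is not a bound site, and the absence of one in this window says nothing of either factor.

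None of the 3 tested ligand genes passed the test in edgeR on the TMM scale or in DESeq2 with its own size factors. In edgeR 0 of them had an unadjusted p under 0.05. Jag1, a ligand of ducts and vessels (chromosome 2, 137081456 to 137116644, minus strand), was counted 42, 58 and 30 times in control and 277, 155 and 272 times in cKO. This gave 5.58, 6.83 and 3.81 CPM against 4.67, 4.68 and 4.54 CPM, with the cKO libraries close together inside the control range. The log2 fold change was -0.23 ± 0.28 (SE; 95% interval -0.82 to 0.36; edgeR adjusted p = 0.530). Jag1 made up 81.7% ± 8.94 of ligand counts in control and 82.7% ± 5.62 in cKO (SD, n = 3; exact permutation p = 0.9).

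In the control libraries the Delta ligands and Jag2 were near the limit of detection. In cKO, where a count of 0 allows 0.05 to 0.0905 CPM, Dll4 (0.303 to 0.65 CPM) and Dll1 (0.286 to 0.483 CPM) lay above it. Dll4, a ligand of endothelial sprouts (chromosome 2, 119325784 to 119335962), had 3, 8 and 5 control counts and 18, 19 and 39 cKO counts, with a log2 fold change of -0.39 (95% interval -1.82 to 1.04; edgeR adjusted p = 0.667). Per 1000 endothelial marker counts it had 8.96 to 22.1 in control and 10.8 to 21.3 in cKO. Dll1, a ligand of pancreatic progenitors (chromosome 17, 15367354 to 15376872), had 0, 0 and 7 control counts and 17, 16 and 23 cKO counts. Its control level thus rested on replicate 3 alone. The log2 fold change of 0.36 (95% interval -1.78 to 2.50; edgeR adjusted p = 0.795) became -0.19 and -0.24 without control replicates 1 and 2, and has no usable size without replicate 3, which leaves 0 counts in control. Jag2, the other Jagged ligand (chromosome 12, 112907819 to 112929776), had 4, 0 and 0 control counts and 0, 0 and 16 cKO counts, and did not pass the filter on low counts. The shares of Jag2, Dll1 and Dll4 in the ligand counts overlapped between groups (exact permutation p = 1, 1 and 0.5).

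Hes1, the classic Notch target and a repressor that keeps progenitors undifferentiated, lies on chromosome 16 (30064384 to 30067796, plus strand). It was counted 142, 139 and 105 times in control and 490, 353 and 573 times in cKO, or 18.9, 16.4 and 13.3 CPM against 8.25, 10.6 and 9.56 CPM on the TMM scale. Every cKO library lay below every control library, and replicate 2 was the highest of the cKO libraries. Hes1 fell by 0.77 ± 0.20 on the log2 TMM scale (SE; 95% interval -1.20 to -0.35; edgeR adjusted p = 0.00529), while on library totals it was higher by 2.47 (adjusted p = 1.52e-08), less than the median gene at 3.36. In CPM of library totals Hes1 stood at 5.81, 5.52 and 4.56 in control and 32.3, 20.8 and 35 in cKO. Hes1 kept its call on the TMM scale without each library in turn, with fold changes from -0.65 without control replicate 1 to -0.89 without control replicate 3. Hes1 is also expressed in ducts and endothelium. Per 1000 ductal marker counts it had 173 to 286 in control and 99.7 to 126 in cKO, lower in every cKO library. Per 1000 endothelial marker counts it had 249 to 424 and 244 to 313, and per 1000 counts of 5 islet markers (Ins2 and Ins1 the most abundant) 18.1 to 33.8 and 13 to 20.8, both with overlap. The acinar markers fell as well, and like Hes1 their sum was highest among cKO libraries in replicate 2. The uncalled Notch1, Jag1 and Dll1 were also highest there. Per 1000 acinar marker counts Hes1 had 0.0326 to 0.042 in control and 0.17 to 0.76 in cKO, higher in every cKO library. Its ratios to mural, fibroblast and stellate, leukocyte and mesothelial markers were lower in every cKO library. The islet sum itself was 558 to 906 CPM in control and 397 to 818 CPM in cKO, and the ductal sum 66.1 to 77.1 and 82.8 to 89.4 CPM. The part of these cells in the level of Hes1 was not tested.

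Hey1, a target known from vascular and stromal cells (chromosome 3, 8663359 to 8667256, minus strand), had 2, 8 and 4 control counts and 46, 14 and 36 cKO counts. On the TMM scale this was 0.266, 0.943 and 0.508 CPM against 0.775, 0.422 and 0.6 CPM, which overlapped. The log2 fold change was 0.06 (95% interval -1.39 to 1.51; edgeR adjusted p = 0.951), an interval too wide to separate a fall from a rise.

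**Figure D4:**
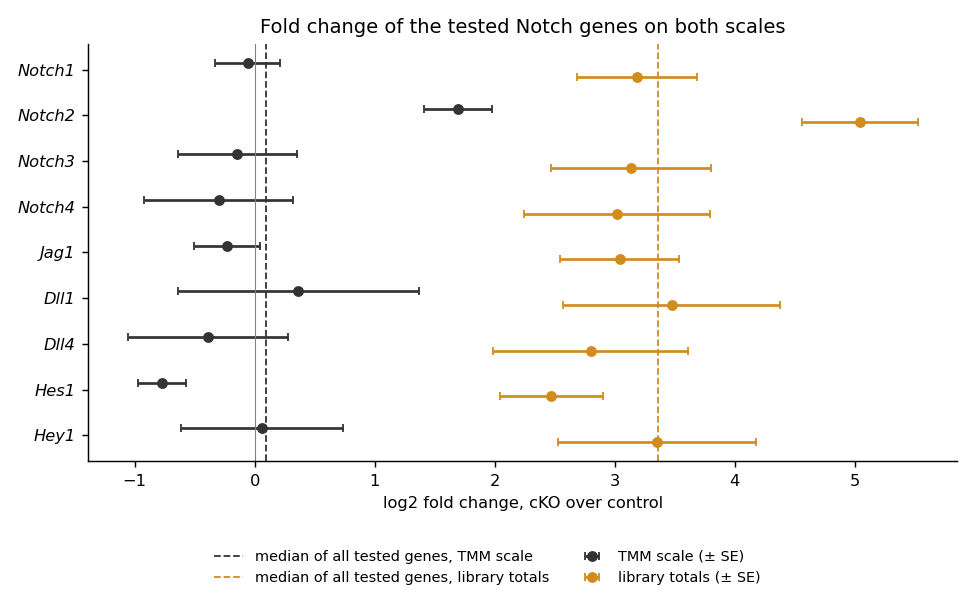
Log2 fold change of the 9 tested members, cKO over control, with SE bars, on the TMM scale (dark) and on library totals (orange); dashed lines mark the median of all tested genes on each scale, 0.10 and 3.36. On both scales Notch2 lies above the median line and Hes1 below it, and the other members lie between -0.39 and 0.36 on the TMM scale.

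The pattern over libraries was compared with tested genes of at least 3 in mean log2 CPM, a level that Notch2 and Jag1 themselves did not reach. Symbols of Gm with digits, symbols ending in Rik and repeated symbols were left out. The measure was the root mean square difference of log2 CPM centred on the control mean over 6 libraries. Nearest to Notch2 were Cmklr1, a chemerin receptor, at 0.107, Ehd4, an endocytic ATPase, at 0.136 and Plekho1 at 0.144. Nearest to Hes1 were Pink1, a kinase of mitophagy, at 0.0469, Ndufs1, a subunit of respiratory complex I, at 0.0703 and Ier3ip1 at 0.0764. Nearest to Jag1 were Oxr1 at 0.0843, Uimc1 at 0.103 and Trim28 at 0.105. With so many genes and 6 libraries in 2 groups, likeness of this kind is a description only.

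The rest of the pathway was read from a list of 52 other genes. Of 47 tested, 11 rose (23.4%, against 24.0% of all tested genes) and 11 fell (23.4%, against 20.7%), with a median log2 fold change of 0.093. By role, 4 of 8 genes listed with the transcription complex rose and 2 fell, and 3 of 9 corepressors rose. The 8 include Rbpjl, which fell and whose protein does not bind Notch. Of the turnover genes 3 of 8 rose and 2 fell, and 2 of 5 glycosyltransferases and 3 of 9 proteases fell. On library totals 44 of the 47 were called higher and 1 lower, Rbpjl.

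Of the genes listed with the transcription complex, Rbpj rose and Rbpjl, whose protein does not bind Notch, fell. Rbpj, the DNA-binding factor of Notch signalling (chromosome 5, 53466152 to 53657362), was counted 66, 33 and 53 times in control and 1404, 549 and 1298 times in cKO, and rose by 1.68 ± 0.26 on the log2 TMM scale (SE; edgeR adjusted p = 0.00011). Rbpjl, its acinar relative (chromosome 2, 164403141 to 164415448), was counted 1306, 1160 and 1148 times in control and 196, 651 and 382 times in cKO, and fell by 3.98 ± 0.77 (edgeR adjusted p = 0.0119), a call lost without cKO replicate 3 (log2 fold change -3.74, edgeR adjusted p = 0.0586). Within a library, Rbpj made up 4.81% (exact 95% interval 3.74 to 6.08), 2.77% (1.91 to 3.86) and 4.41% (3.32 to 5.73) of the counts of both genes in control. In cKO it made up 87.8% (86.0 to 89.3), 45.8% (42.9 to 48.6) and 77.3% (75.2 to 79.2). The means were 4% ± 1.08 and 70.2% ± 21.9 (SD, n = 3; exact 2-sided permutation p = 0.1, the smallest possible), with every cKO library above every control library and replicate 2 nearest to control. The acinar marker sum moved the other way and was also nearest to control in cKO replicate 2 (62800 CPM, against 10900 and 17100 CPM in replicates 1 and 3 and 390000 to 460000 CPM in control). All 6 acinar markers fell, and their part in this shift was not tested. Rbpj has 2 annotated processed pseudogenes, and Rbpjl overlaps Matn4 on the opposite strand, so both counts could hold or lose shared reads. Among the coactivators Maml2, a Mastermind protein, rose by 1.40 ± 0.32 (SE; edgeR adjusted p = 0.00246) and the acetyltransferase gene Ep300 by 0.95 ± 0.23 (adjusted p = 0.0041).

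Of the genes that shape ligand binding, the Fringe glycosyltransferase genes Rfng and Lfng fell by 1.28 ± 0.24 and 0.87 ± 0.23 on the log2 TMM scale (SE; edgeR adjusted p = 0.000567 and 0.0066). Fringe enzymes extend the O-fucose on Notch and modulate its response to Delta and Jagged ligands. Poglut1, which adds O-glucose, did not pass (-0.27, adjusted p = 0.368). Mib1, a ubiquitin ligase that drives ligand endocytosis, fell by 2.36 ± 0.59 (adjusted p = 0.00466), with 15, 16 and 13 control counts and 18, 18 and 15 cKO counts. On library totals the sign of Mib1 reversed and its call was lost (0.80, edgeR adjusted p = 0.294). Neurl1b, listed in the same role, rose by 0.91 ± 0.20 (adjusted p = 0.00175), from 9.1 ± 0.529 to 17 ± 3.05 CPM, and Mib2 did not pass (0.34, adjusted p = 0.269). The atypical ligand genes Dlk1 (-0.32) and Dlk2 (-0.07) did not pass either.

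Among the proteases, Furin, which cuts the receptor precursor, fell by 0.86 ± 0.15 (edgeR adjusted p = 0.000233). The gamma-secretase genes Psen2 and Psenen fell by 1.43 ± 0.16 and 0.70 ± 0.17 (adjusted p = 5.95e-06 and 0.00382). Psen2, a catalytic subunit, had 382, 364 and 401 control counts and 1046, 653 and 981 cKO counts, or 48.2 ± 4.6 CPM against 17.9 ± 1.68 CPM (SD, n = 3), and every cKO library lay below every control library on the TMM scale.

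Among corepressors Tle3, a Groucho protein, rose by 1.05 ± 0.21, the demethylase gene Kdm5a by 0.75 ± 0.18 and the deacetylase gene Hdac1 by 0.90 ± 0.26 (SE; edgeR adjusted p = 0.000785, 0.00372 and 0.0121). Hdac1 lost its call without control replicate 2 (0.0508), without cKO replicate 3 (0.0905) and with all libraries thinned to 1 effective size (0.0579). Of the genes of turnover and inhibition, Numbl, a relative of the Notch inhibitor Numb, rose by 1.84 ± 0.41 (adjusted p = 0.002), while the Deltex gene Dtx1 and Fbxw7, which marks the intracellular domain for degradation, fell by 1.65 ± 0.31 and 0.70 ± 0.19 (adjusted p = 0.000506 and 0.00687). Other targets were scarce. Hes7, a Hes gene of the segmentation clock, had 20, 33 and 12 control counts and 3, 2 and 13 cKO counts and fell by 4.51 ± 0.71 (adjusted p = 0.000128). On library totals the Hes7 groups overlapped and the call was lost (-1.24, edgeR adjusted p = 0.125). Hes7 overlaps 9130213A22Rik on the opposite strand. Heyl had 28, 17 and 14 control counts and 53, 54 and 68 cKO counts and did not pass (-1.04, adjusted p = 0.0804). Hes5 had 0 counts in all 6 libraries, and Hey2 had 0 in each control library and 6, 15 and 5 in cKO. Nrarp, a feedback inhibitor induced by Notch, had 3, 4 and 8 control counts and 23, 8 and 19 cKO counts. On the TMM scale Nrarp was at 0.399, 0.471 and 1.02 CPM against 0.387, 0.241 and 0.317 CPM, so the higher counts were no rise on that scale. Hes5, Hey2 and Nrarp were not tested.

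**Figure D5:**
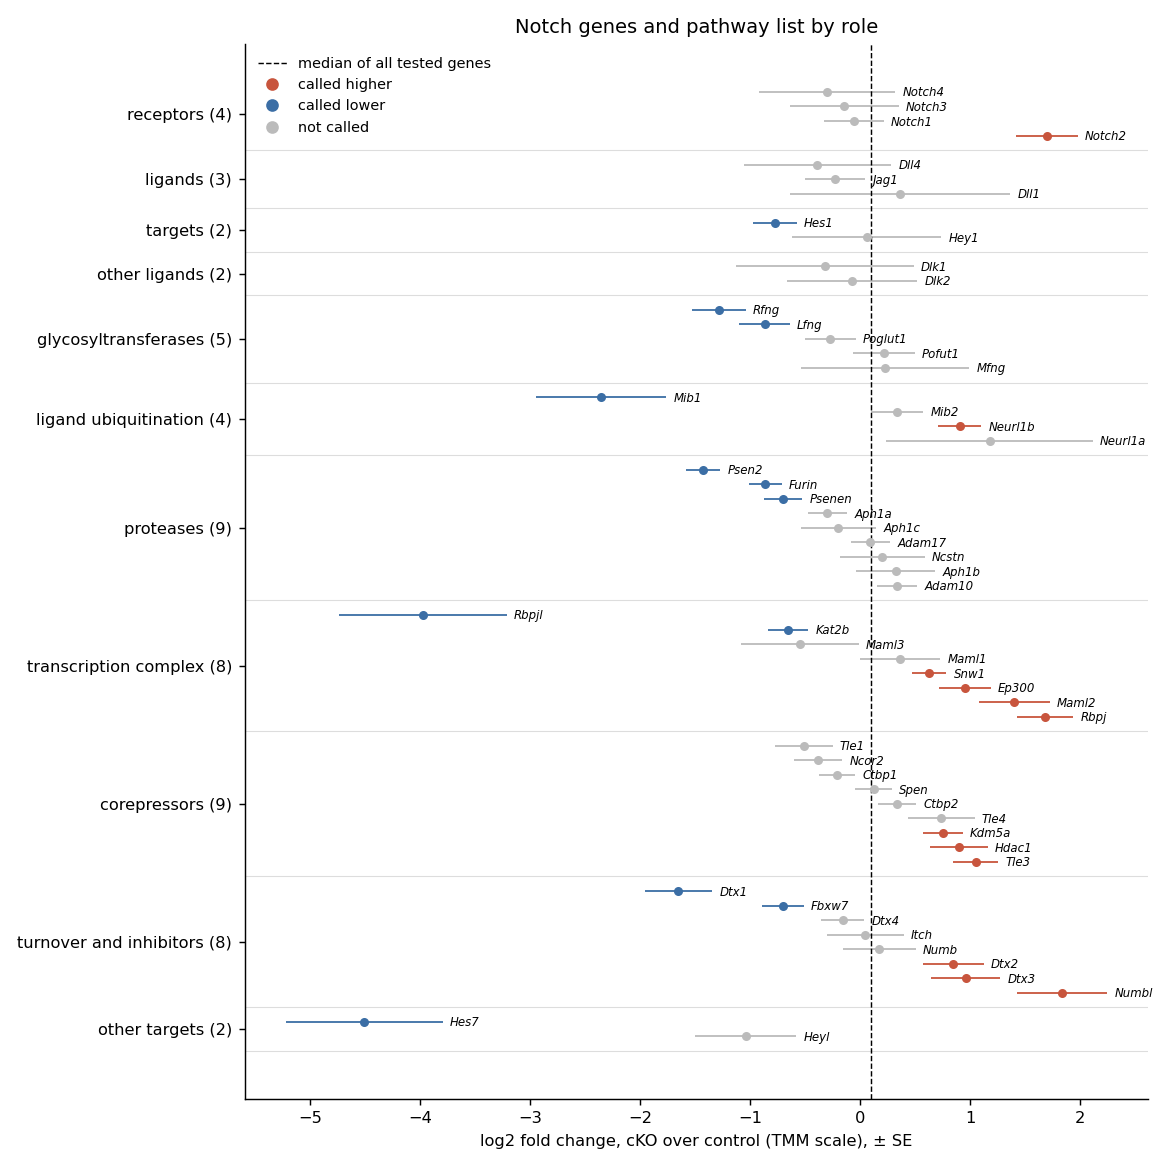
Log2 fold change (cKO over control, TMM scale, with SE bars) of the tested members and of 47 other pathway genes, grouped by role with the number tested in brackets; red marks genes called higher, blue genes called lower and grey genes not called at an adjusted p of 0.05, and the dashed line is the median of all tested genes at 0.10. The group of the transcription complex holds both a large fall, Rbpjl at -3.98, and a large rise, Rbpj at 1.68. The protein of Rbpjl does not bind Notch. The receptors hold 1 rise, Notch2 at 1.70.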

How the data were processed

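The authors deposited 1 table of raw counts per gene symbol for each of 6 libraries (23282 rows, no normalization), per the files' values. Per the labels' protocols, libraries were made with a Lexogen QuantSeq kit, which yields 1 tag near the 3' end of a transcript. The submitters' processing notes list Bowtie2 and edgeR, and mm10 and GRCm38 as builds, without versions or roles. Which counter, annotation, strand setting and filters were used is not given in the sources used here. Without a known strand setting, reads of Notch1, Notch3, Notch4, Dll1 and Dll4 cannot be told from those of genes annotated on the opposite strand. Notch2 overlaps Gm42819 and Gm42820 on its own strand, and Notch1 and Jag2 each overlap a microRNA gene there, which no strand setting separates. No molecular identifiers are described.

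All genes were fitted together with edgeR 4.0.16 (R 4.3.3): filterByExpr defaults (minimum count 10, minimum total 15), TMM factors, robust glmQLFit, glmQLFTest and Benjamini-Hochberg adjustment over 13132 genes with a threshold of 0.05. The script was tested on simulated data, in which most genes were unchanged and library sizes were those of the TMM fit. That run cannot check whether TMM scaling holds in the real libraries. The SE is the log2 fold change over the square root of F, and the 95% interval uses the total degrees of freedom of the test. Log2 CPM used a prior count of 2. Shares within a library were compared with exact permutation tests over libraries, and their intervals are Clopper-Pearson. Alternatives were other scalings, DESeq2 1.42.0, other filters, thinning, a replicate block and leaving out each library. Replicates of a group differed by more than sampling noise (chi-square per degree of freedom 14.6 to 370).

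Coordinates are from GENCODE M21 (GRCm38), and promoters from RefSeq (GRCm38.p6). Named besides the members are Rbpj and Rbpjl, up to 3 genes per pathway role with the smallest p, the 2 most abundant markers per list, and the 3 genes nearest in pattern to the 3 members with the smallest p. Hes5, Hey2 and Nrarp were named outside this rule, after their values were seen. A further gene of the pathway list is not reported here. The members and lists were chosen with earlier results of these data known.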

Additional observations from a re-analysis of the deposited data

How the results depend on the processing

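Library totals move all genes up by a median of 3.26 on the log2 scale, and of the 5868 called genes 3205 kept their call and direction. On library totals edgeR called 12654 genes higher and 53 lower, in place of 3152 and 2716. Of the members 9 were then higher and 0 lower, with positive fold changes in all 9, and of the pathway list 44 were higher and 1 lower, in place of 11 and 11. With that shift, which says nothing particular to these genes, negative log2 fold changes of the TMM scale became positive: Notch1 3.19, Notch3 3.14, Notch4 3.02, Jag1 3.04, Dll4 2.80, Hes1 2.47, and in the list Rfng 2.01, Lfng 2.47, Poglut1 3.04, Mib1 0.80, Dlk1 2.83, Dlk2 3.15, Heyl 2.15, Psen2 1.82, Furin 2.41, Psenen 2.55, Dtx1 1.51, Fbxw7 2.56. With a filter of 10 CPM in at least 3 libraries, 1442 were higher and 1420 lower, with 0 members higher, since Notch2 was below that filter, and 7 list genes lower; fewer genes were tested (4183). Notch2 (1.48 to 1.89) and the TMM-scale fall of Hes1 (-0.89 to -0.56) kept their calls in every other alternative run that tested them. Uncalled genes changed sign in some: leaving out 1 library gave Notch1 -0.24 to 0.065, Notch3 -0.45 to 0.29, Notch4 -0.57 to 0.13, Dll1 -0.24 to 6.70 (an upper end of no usable size, fitted to controls of 0 counts), Hey1 -0.27 to 0.63, Dlk1 -0.90 to 0.28 and Dlk2 -0.51 to 0.46; scaling on counts outside the 100 top control genes and the acinar markers gave 0.011 for Notch1 and 0.00063 for Dlk2. The cause of these sign changes was not tested. With the replicate number as a block, Dlk2 was 0.047, Notch2 was 1.68 and Rbpjl lost its call (-4.34, edgeR adjusted p = 0.0533). Same-numbered libraries did not deviate together (correlations -0.0295 to 0.0142 across genes). With so few libraries this cannot exclude a pairing, and no label gives one, so the main fit used no block. The control libraries held 69 to 105 receptor counts each, which limits every receptor value.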
